A study of Homo sapiens with 21 samples.

Results

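NRF2 oxidative stress defence genes were followed across all groups of an RNA-seq study of K562 cells. The 9 members are NFE2L2, KEAP1, HMOX1, NQO1, GCLC, GCLM, TXNRD1, SRXN1 and ME1. They are a named list of a known pathway and were matched by Ensembl identifier. All 9 were found among the 61541 genes of the gene count table and all 9 among the 57300 gene identifiers of the exon bin files. Within the bin files, NFE2L2, GCLC and SRXN1 stand in identifiers joined with overlapping genes.

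NRF2, the product of NFE2L2, is a transcription factor that is made and destroyed continuously, because KEAP1 binds it and hands it to a CUL3 ubiquitin ligase. Oxidants and electrophiles modify KEAP1, NRF2 then accumulates, pairs with a small MAF protein and binds antioxidant response elements near its target genes. Those targets make glutathione, keep thioredoxin reduced, detoxify quinones, supply NADPH and break down haem, and in erythroid cells the same elements are also read by the related factor NFE2 and by the repressors BACH1 and BACH2.

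K562 is an established human line from a chronic myeloid leukaemia in blast crisis, with erythroid features, and it was grown in culture medium with fetal bovine serum. The 21 libraries formed 7 groups of 3. In one pair of groups, labelled 34knContol and 34kn, and in another, labelled 34kpContol and 34kp, the treated cells overexpressed one or the other of a pair of enhancer RNAs that are transcribed from an enhancer upstream of MYB. These 12 libraries were deposited as counts over exon bins, the non-overlapping pieces into which the exons of a gene are divided. The other 9 libraries came from cells with empty vector, with MYB overexpression and with NMYB overexpression, where the series text speaks of MYB truncated at the N terminus, and were deposited as gene counts. Nothing in the labels tells whether the replicates of a group came from different cultures, which promoter drove expression, or whether clones or pools were used. The p-values below therefore rest on a spread between libraries that may be technical only.

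Library totals ranged from 16552237 to 24462819 in the gene table and from 36563252 to 41243796 in the bin files, and levels below are CPM, counts scaled to a common library total with TMM factors. MYB itself stood at 216, 210 and 219 CPM with empty vector, at 230, 228 and 222 CPM in the libraries labelled MYB and at 215, 202 and 217 CPM in those labelled NMYB. The difference was 0.077 on the log2 scale for MYB (edgeR, adjusted p = 0.23) and -0.025 for NMYB (edgeR, adjusted p = 0.727), so MYB was not seen to be raised, and the groups are called the libraries labelled MYB and NMYB. All 12 K562 and erythroid markers were above 1 CPM in the gene table, and their sum was 2312 to 2507 CPM with empty vector, 2106 to 2236 CPM for MYB and 2246 to 2253 CPM for NMYB, both below empty vector without overlap. Marker lists of other lineages differed between the groups, with MS4A1 (lymphoid), ELANE (granulocytic), LUM (fibroblast), PAX2 (kidney) and GP9, PF4 and PPBP (megakaryocytic) at 0 in the gene table. The summed lymphoid list was 36.4 to 37.3 CPM with empty vector, 16.3 to 17.9 CPM in the libraries labelled MYB and 19.7 to 21.1 CPM in those labelled NMYB, with 2 of 7 genes above 1 CPM. The summed epithelial list, in which 5 of 8 genes were above 1 CPM, was 1287 to 1344, 827 to 896 and 940 to 1071 CPM in the same order. The summed monocytic and granulocytic list, in which 2 of 7 genes were above 1 CPM, was 25.2 to 29.9, 33.8 to 38.8 and 38.3 to 41.0 CPM, and the part of these lists in the results below was not tested. Bulk RNA cannot tell fewer cells of a type from less RNA per cell.

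Promoter windows of 8 members, reaching from 250 bases before to 50 bases after a start site, were available in a RefSeq table of GRCh38.p14 (HMOX1 was not matched). These 11 windows were searched on both strands for the core of the antioxidant response element, TGACNNNGC, in which N is any base. The core occurred 8 times, in 5 windows of 4 members, against 13.35% of all 35116 promoter windows of the same length. It was in ME1 at -137 and 12, in TXNRD1 at -99 and -8 of the first window and at -102 of the second, in KEAP1 at -54 and -31 of the second window, and in GCLM at -34, each position being the first base of the match in the window, counted from 1 at the start site with no position 0. The windows of the 4 other matched members, NFE2L2, NQO1, GCLC and SRXN1, do not hold these letters. The ME1 match at -137 overlaps the core of an AP-1 element, TGAGTCA on the other strand, which 4.949% of all windows hold. A match of letters is a description and says nothing about binding in these cells. Sequence outside these windows was not searched, so a window without the core does not show that the gene lacks an antioxidant response element. Shown are the 5 windows with the core and those of NQO1 and GCLC, whose levels are compared below and whose windows lack it, 5' to 3' on the gene's strand, with each core in capitals.
ME1, chr6:83431002-83431301, minus strand: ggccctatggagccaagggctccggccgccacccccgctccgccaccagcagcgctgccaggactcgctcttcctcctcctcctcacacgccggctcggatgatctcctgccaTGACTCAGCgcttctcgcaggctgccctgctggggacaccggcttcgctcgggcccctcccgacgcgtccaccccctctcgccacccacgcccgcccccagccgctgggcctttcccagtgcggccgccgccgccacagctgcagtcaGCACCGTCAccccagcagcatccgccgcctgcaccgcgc
TXNRD1 (first window), chr12:104215529-104215828, plus strand: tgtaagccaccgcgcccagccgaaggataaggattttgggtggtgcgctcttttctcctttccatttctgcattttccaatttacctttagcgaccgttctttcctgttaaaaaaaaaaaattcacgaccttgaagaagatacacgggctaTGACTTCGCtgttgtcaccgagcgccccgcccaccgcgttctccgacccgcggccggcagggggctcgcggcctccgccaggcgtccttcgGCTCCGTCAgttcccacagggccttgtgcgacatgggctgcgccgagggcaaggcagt
TXNRD1 (second window), chr12:104286782-104287081, plus strand: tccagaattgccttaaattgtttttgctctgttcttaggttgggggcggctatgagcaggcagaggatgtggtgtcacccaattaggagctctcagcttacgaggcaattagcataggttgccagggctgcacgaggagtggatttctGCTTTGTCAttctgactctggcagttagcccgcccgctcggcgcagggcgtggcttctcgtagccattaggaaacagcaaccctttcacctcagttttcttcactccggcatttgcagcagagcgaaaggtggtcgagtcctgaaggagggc
KEAP1 (second window), chr19:10502722-10503021, minus strand: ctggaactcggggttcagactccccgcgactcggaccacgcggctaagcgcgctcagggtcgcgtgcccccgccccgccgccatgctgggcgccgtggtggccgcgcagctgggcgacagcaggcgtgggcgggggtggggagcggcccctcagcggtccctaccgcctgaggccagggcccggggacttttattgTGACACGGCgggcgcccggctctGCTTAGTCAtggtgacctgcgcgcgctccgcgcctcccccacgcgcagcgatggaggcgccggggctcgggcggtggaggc
GCLM, chr1:93909381-93909680, minus strand: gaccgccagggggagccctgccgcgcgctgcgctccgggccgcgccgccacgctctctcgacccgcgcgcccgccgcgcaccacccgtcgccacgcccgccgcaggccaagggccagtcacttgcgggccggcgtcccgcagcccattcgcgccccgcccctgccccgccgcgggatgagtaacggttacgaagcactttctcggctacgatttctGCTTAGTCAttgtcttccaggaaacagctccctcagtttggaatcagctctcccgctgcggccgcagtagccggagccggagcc
NQO1, chr16:69726511-69726810, minus strand: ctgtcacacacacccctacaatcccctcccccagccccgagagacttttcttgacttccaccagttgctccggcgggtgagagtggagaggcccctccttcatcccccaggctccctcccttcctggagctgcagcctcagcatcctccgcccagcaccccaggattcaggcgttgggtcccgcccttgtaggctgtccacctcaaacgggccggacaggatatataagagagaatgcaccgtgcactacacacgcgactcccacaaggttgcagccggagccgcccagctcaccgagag
GCLC, chr6:53545052-53545351, minus strand: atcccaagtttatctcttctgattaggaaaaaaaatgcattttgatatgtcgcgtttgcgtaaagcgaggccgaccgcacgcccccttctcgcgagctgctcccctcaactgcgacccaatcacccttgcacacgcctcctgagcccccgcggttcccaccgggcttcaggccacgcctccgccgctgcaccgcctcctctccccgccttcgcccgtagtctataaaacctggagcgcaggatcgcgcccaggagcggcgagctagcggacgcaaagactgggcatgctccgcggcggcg

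Positions of the genes are given as GENCODE 29 places them on GRCh38. NFE2L2 (ENSG00000116044) lies at chr2:177227595-177392697 on the minus strand, and KEAP1 (ENSG00000079999) at chr19:10486120-10503741 on the minus strand. GCLC (ENSG00000001084) lies at chr6:53497341-53616970, GCLM (ENSG00000023909) at chr1:93885205-93909456, NQO1 (ENSG00000181019) at chr16:69706996-69726951 and ME1 (ENSG00000065833) at chr6:83210389-83431071, all on the minus strand. TXNRD1 (ENSG00000198431) lies at chr12:104215779-104350305 on the plus strand, HMOX1 (ENSG00000100292) at chr22:35380361-35394214 on the plus strand and SRXN1 (ENSG00000271303) at chr20:646615-653370 on the minus strand. Values refer to the whole exon set of each gene unless a bin is named.

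Among the members, TXNRD1 was the most abundant per length in the gene table and HMOX1 and SRXN1 were at or near 0. With empty vector, levels per kilobase of exon were 50.5 ± 1.10 CPM per kb for TXNRD1, 26.7 ± 2.35 for KEAP1, 20.3 ± 0.616 for NQO1, 12.3 ± 0.456 for NFE2L2, 11.4 ± 0.583 for GCLM, 5.17 ± 0.436 for ME1 and 1.99 ± 0.053 for GCLC (SD, n = 3). The 3 libraries labelled MYB and the 3 labelled NMYB kept that order of group means. NFE2L2 and GCLM, the closest neighbours, lay within each other's spread in the libraries labelled MYB, at 12.5 ± 0.272 and 12.1 ± 1.29 CPM per kb (SD, n = 3). The catalytic and the modifier chain of glutamate-cysteine ligase were thus recorded at unequal levels per length, GCLC at 1.99 and GCLM at 11.4 CPM per kb with empty vector. Without scaling by length their means were 17.2 and 62.0 CPM. Lengths were unions of all annotated exons, 8646 bases for GCLC and 5420 for GCLM, so unused exons lower a value. NFE2L2 and GCLC share 17.63% and 6.12% of their exon bases with overlapping genes, which adds uncertainty to their place in the order.

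**Figure D1:**
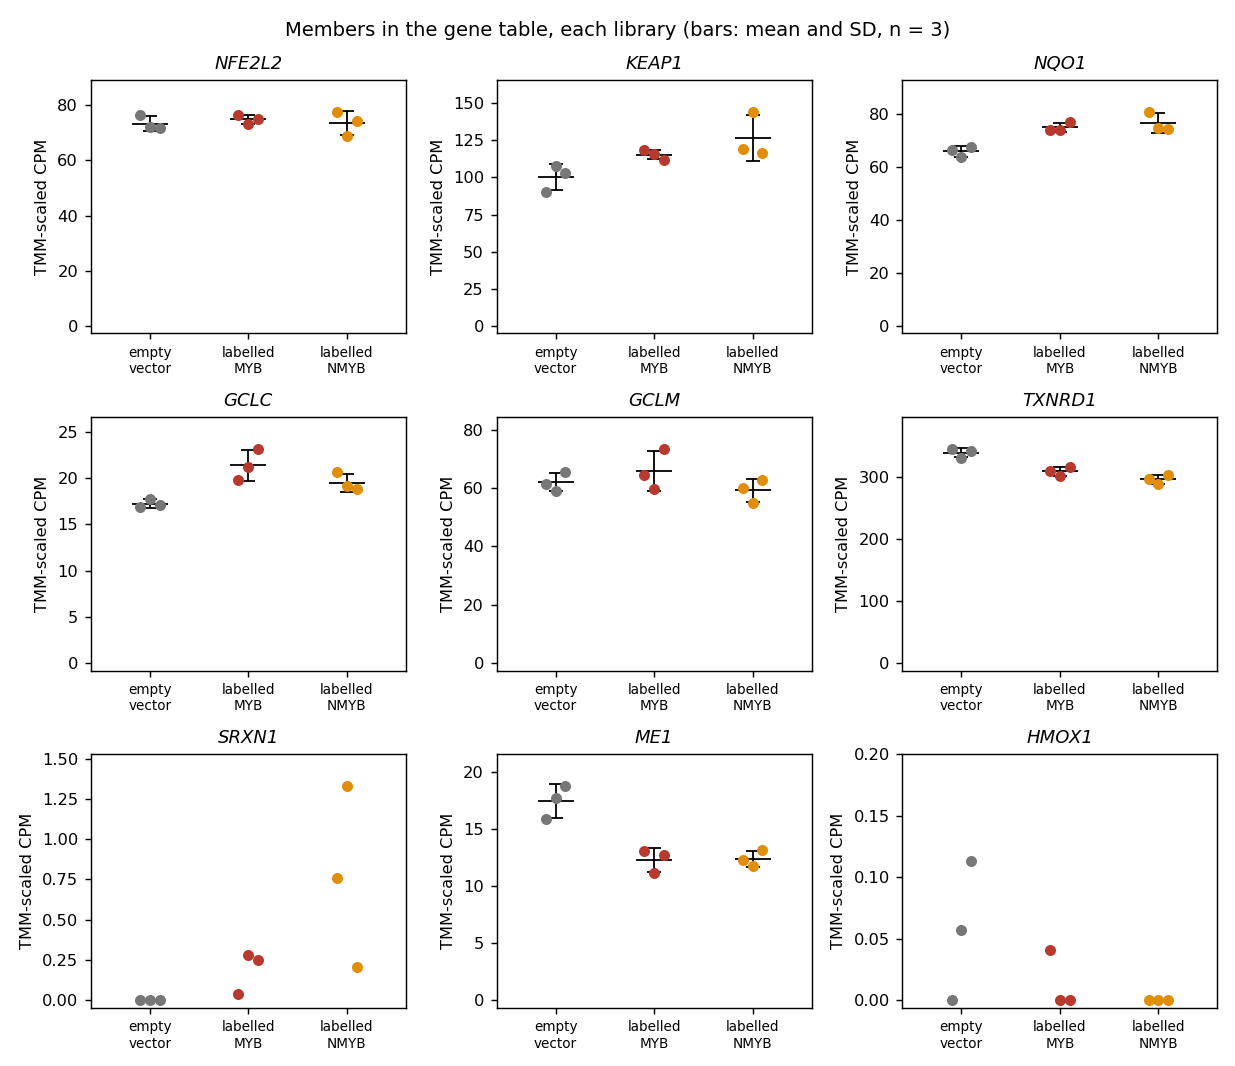
Level of each member in the 9 libraries of the gene table, in TMM-scaled CPM on a linear axis from 0, with one point per library and bars for the mean and SD of each group of 3 (no bars for SRXN1 and HMOX1). ME1 sits at 15.8 to 18.7 CPM with empty vector and at 11.1 to 13.2 CPM in the other 6 libraries, while the NFE2L2 points of the 3 groups overlap.

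The first comparison asks which members differed between cells labelled as overexpressing MYB, or its truncated form NMYB, and cells with empty vector. ME1 and TXNRD1 fell in both, NQO1 rose in both, GCLC rose in the libraries labelled MYB and KEAP1 rose in those labelled NMYB. The NFE2L2 transcript did not pass the test in either. Of the 7 members with enough counts, 2 were called higher and 2 lower in the libraries labelled MYB, where 22.3% of all 15823 genes tested were called, 9.62% higher and 12.7% lower. In the libraries labelled NMYB, 2 were likewise called higher and 2 lower, against 24.9% of all genes, 12.6% higher and 12.4% lower. The median change of the 7 members was 0.085 on the log2 scale for MYB and 0.0053 for NMYB, beside 0.0055 and 0.0076 over all genes. In each comparison 5 of the 7 had groups that did not overlap, against 40.5% of all genes for MYB and 38.9% for NMYB. The comparisons share the 3 empty-vector libraries, so their values stand side by side and their agreement is no separate evidence.

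ME1, the cytosolic malic enzyme that makes NADPH from malate, had the largest changes among the members. Its level was 15.8, 17.7 and 18.7 CPM with empty vector, 13.1, 11.1 and 12.7 CPM in the libraries labelled MYB and 12.3, 11.8 and 13.2 CPM in those labelled NMYB. Every empty-vector library was above all 6 others. The log2 fold change was -0.50 for MYB (SE 0.090, edgeR adjusted p = 0.000495), a ratio of 0.708 with a 95% interval of 0.621 to 0.806, and -0.49 for NMYB (SE 0.092, adjusted p = 0.000713), a ratio of 0.713 with an interval of 0.624 to 0.815.

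TXNRD1, the cytosolic reductase that returns thioredoxin to its reduced form with electrons from NADPH, was lower by a smaller amount. Its level was 344, 330 and 341 CPM with empty vector, 308, 301 and 316 CPM in the libraries labelled MYB and 297, 288 and 303 CPM in those labelled NMYB. The empty-vector libraries did not overlap with either group. The log2 fold change was -0.13 for MYB (SE 0.040, edgeR adjusted p = 0.0221) and -0.19 for NMYB (SE 0.041, adjusted p = 0.00171). The NMYB call held in all 12 alternatives tried. The MYB call did not hold without empty-vector replicate 1 (adjusted p = 0.165) or 3 (0.123), without MYB replicate 1 (0.0755) or 2 (0.161), or when libraries were scaled by their totals alone (0.0889).

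NQO1, the quinone reductase whose transcript is a standard readout of NRF2 activity, stood at 66.7, 63.8 and 67.7 CPM with empty vector. It was 74.0, 74.3 and 77.1 CPM in the libraries labelled MYB and 81.0, 74.7 and 74.7 CPM in those labelled NMYB, and no library of either group reached down to the empty-vector range. The log2 fold change was 0.19 for MYB (SE 0.053, edgeR adjusted p = 0.0162) and 0.22 for NMYB (SE 0.053, adjusted p = 0.0056). The MYB call was lost without empty-vector replicate 2 (adjusted p = 0.0653) and without MYB replicate 3 (0.0651), and the NMYB call without NMYB replicate 1 (0.0534).

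GCLC, the catalytic chain of glutamate-cysteine ligase, which catalyses the rate-limiting step of glutathione synthesis, was 16.8, 17.7 and 17.1 CPM with empty vector. It was 19.8, 21.1 and 23.1 CPM in the libraries labelled MYB and 20.6, 19.1 and 18.8 CPM in those labelled NMYB, so that neither group overlapped with empty vector. The log2 fold change was 0.31 for MYB (SE 0.078, edgeR adjusted p = 0.00752), which passed, and 0.18 for NMYB (SE 0.080, adjusted p = 0.108), which did not. The difference between the libraries labelled NMYB and MYB was -0.13 on the log2 scale, with a 95% interval of -0.29 to 0.032 (edgeR adjusted p = 0.397), so GCLC is not shown to differ between them. GCLM, the modifier chain that makes the ligase more efficient, was 61.5, 59.1 and 65.4 CPM with empty vector, 64.5, 59.6 and 73.4 CPM for MYB and 59.9, 54.8 and 62.8 CPM for NMYB. All 3 groups overlapped, and the log2 differences of 0.085 and -0.066 from empty vector did not pass (edgeR adjusted p = 0.431 and 0.561).

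The regulators gave unlike results. NFE2L2 was 76.4, 71.9 and 71.5 CPM with empty vector, 76.6, 73.3 and 74.8 CPM in the libraries labelled MYB and 77.5, 68.9 and 74.2 CPM in those labelled NMYB. These ranges overlap, and the ratio to empty vector had 95% intervals of 0.944 to 1.11 for MYB and 0.927 to 1.09 for NMYB (edgeR adjusted p = 0.736 and 0.957). KEAP1, the adaptor that presents NRF2 for degradation, was 90.4, 108 and 103 CPM with empty vector, 119, 116 and 112 CPM for MYB and 119, 144 and 116 CPM for NMYB. Both groups lay above all empty-vector libraries. The log2 difference was 0.20 for MYB (SE 0.077, edgeR adjusted p = 0.0698) and 0.33 for NMYB (SE 0.077, adjusted p = 0.00525), and the NMYB call held in all 12 alternatives. KEAP1 for MYB passed without empty-vector replicate 2 (adjusted p = 0.0298), with library totals alone (0.0312), without the filter on low counts (0.00822) and in a fit of only the 6 libraries compared (0.00677).

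HMOX1, haem oxygenase 1, which splits haem and is a target of both NRF2 and the haem-sensitive repressor BACH1, was almost absent from the reads. It had 0, 1 and 2 reads with empty vector, 1, 0 and 0 in the libraries labelled MYB and 0 in the 3 labelled NMYB. With 3 counts over a group as the floor, a level up to 0.0536, 0.0463 and 0.0540 CPM in the 3 groups would not be told from 0, as far as counting error goes. SRXN1, sulfiredoxin, which restores overoxidised peroxiredoxins, had 0 reads in the empty-vector libraries, 1, 6 and 5 in those labelled MYB and 15, 22 and 4 in those labelled NMYB. GENCODE 29 places 2292 of its 2698 exon bases, 84.95%, also in a read-through gene that joins SRXN1 to SCRT2, and that gene itself had between 0 and 8 reads per library. How reads that fit both genes were counted is not given in the sources used here, so no level of SRXN1 is read from the gene table. Neither gene was tested in the fit reported here. Where an alternative did test SRXN1, without the filter on low counts or with a library left out, the call rests on these same few reads.

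The libraries labelled NMYB and MYB were compared directly in the same fit. Of the 7 members tested, 0 were called by edgeR and 1, GCLM, had an unadjusted p below 0.05 (log2 -0.15, adjusted p = 0.278), where 1.14% of all genes were called, 2806 genes had an unadjusted p below 0.05, and the median change was -0.025 for the members against 0.020 for all genes. All 7 had overlapping groups, while 22.8% of all genes did not. The largest difference after GCLM was KEAP1 at 0.13 (edgeR adjusted p = 0.396). ME1 differed by 0.011 with a 95% interval for the ratio of 0.879 to 1.16, and NQO1 by 0.032 with an interval of 0.948 to 1.10.

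**Figure D2:**
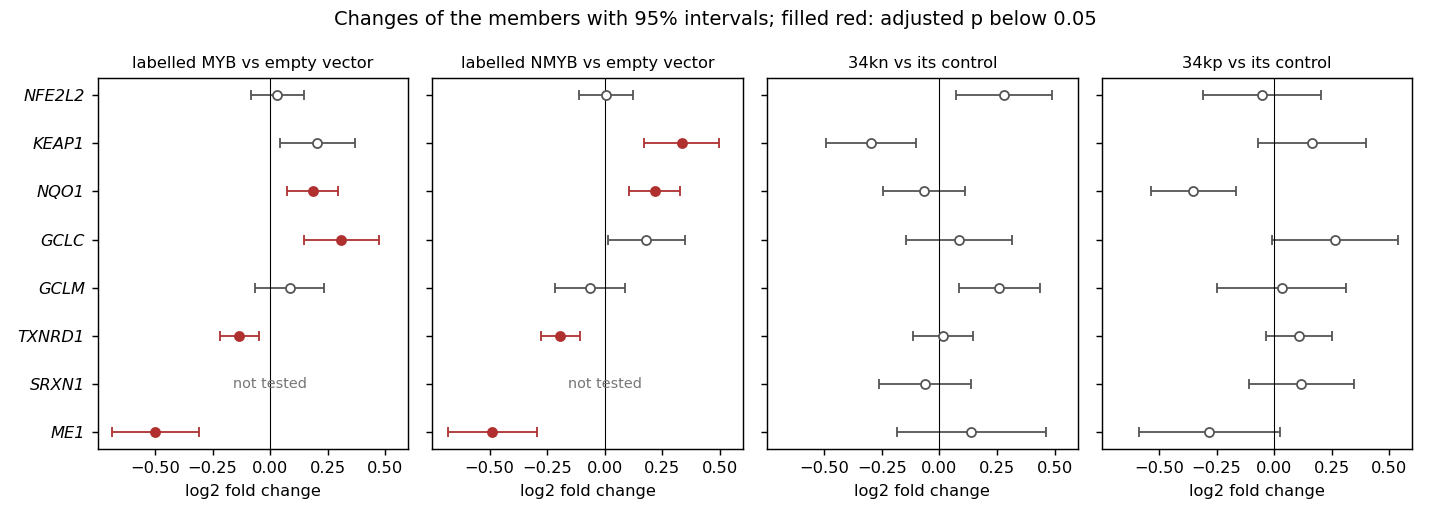
Log2 fold change of each member against its own control in 4 comparisons, with 95% intervals from edgeR, filled red where the adjusted p was below 0.05. ME1 lies at -0.50 and -0.49 in the libraries labelled MYB and NMYB, and no member is filled in the 34kn or 34kp panels.

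The eRNA experiments compared cells labelled as overexpressing either enhancer RNA with their own controls. The level of the enhancer RNAs themselves was not measured here. MYB differed from control by 0.17 on the log2 scale with 34kn (edgeR adjusted p = 0.205) and by 0.069 with 34kp (0.699). None of the 8 members with enough counts was called in either experiment. In the 34kn experiment edgeR called 0 of all 16116 genes, 0% of those tested, while 3758 had an unadjusted p below 0.05 and DESeq2 called 952. In the 34kp experiment it called 392 of 16662 genes, 2.35%, of which 0.63% of all tested were higher and 1.72% lower. The median change of the 8 members was 0.050 on the log2 scale in the 34kn experiment and 0.070 in the 34kp experiment, beside 0.0016 and -0.0050 over all genes. At an unadjusted p below 0.05 there were 3 members in the 34kn experiment, KEAP1, GCLM and NFE2L2, and 1 in the 34kp experiment, NQO1, where 2982 genes in all were below it. DESeq2 called 0 of the 8 members in the 34kn experiment and 1, NQO1, in the 34kp experiment.

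Some libraries of these experiments stood apart. The share of counted items set aside for low quality was 4.46% to 4.64% with 34kp and 7.14% to 8.35% in its controls, and the ambiguous share was 0.0215% to 0.0225% with 34kp and 0.0158% to 0.0171% in its controls. Over genes, the chi-square divided by its degrees of freedom was 51.7 between replicates 1 and 3 with 34kp and 45.7 between 34kn control replicates 1 and 2, against 1.59 to 22.9 for the other 19 replicate pairs of the series. The summed list of 10 K562 and erythroid markers was 12362 to 13452 CPM in the 34kn controls and 11702 to 12041 CPM with 34kn, and 8310 to 8883 CPM in the 34kp controls and 8899 to 9321 CPM with 34kp. The part of these differences in the results was not tested.

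**Figure D3:**
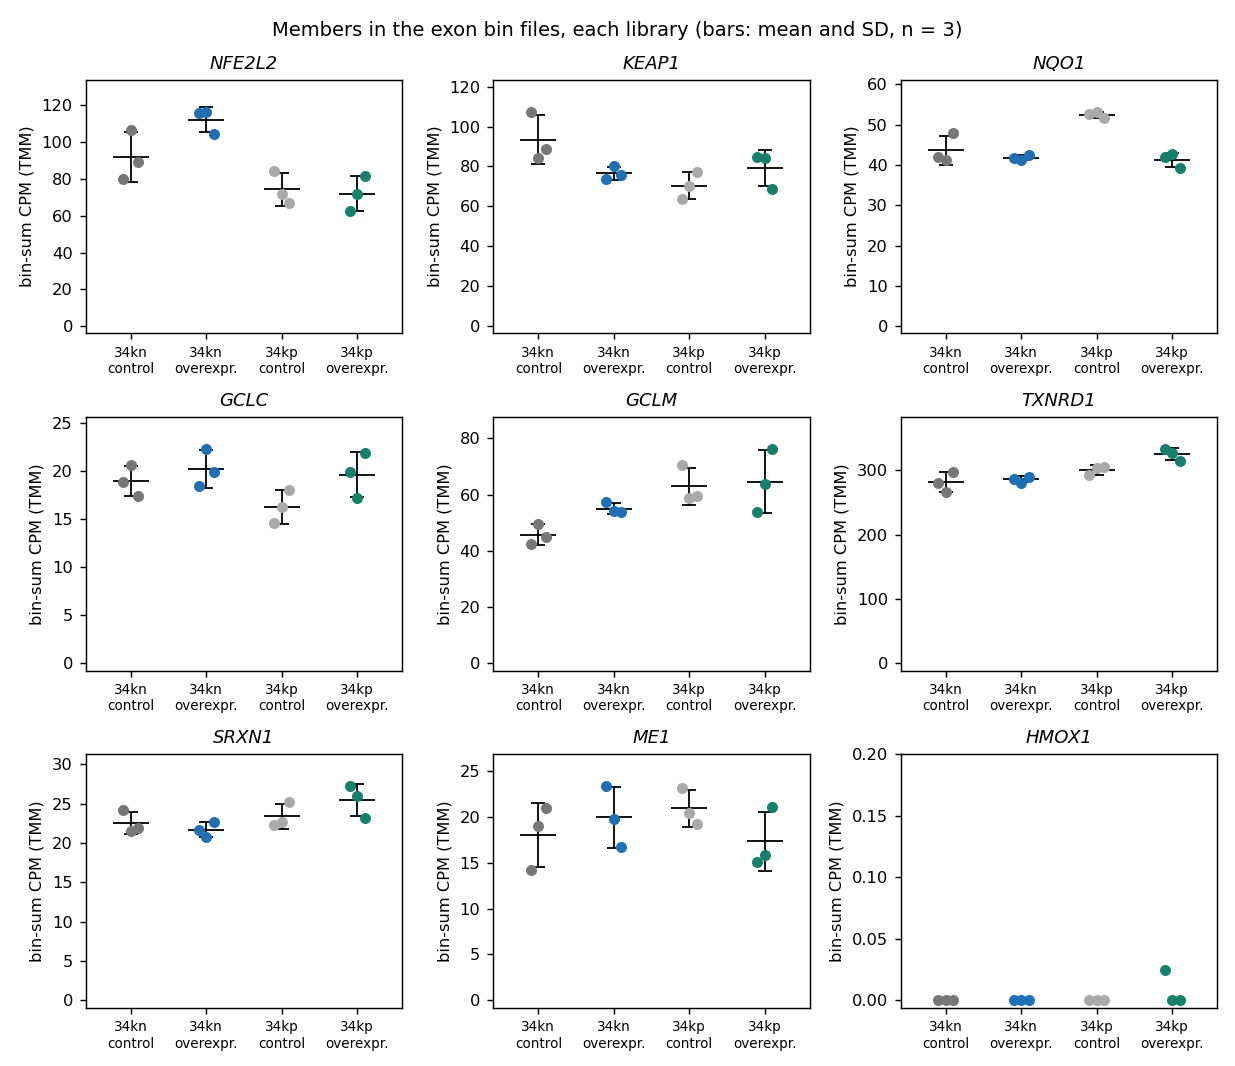
Level of each member in the 12 libraries with exon bins, as bin counts summed per gene in TMM-scaled CPM on a linear axis from 0, with one point per library and bars for the mean and SD of each group of 3 (no bars for HMOX1). The 3 NQO1 points of the 34kp controls, at 51.7 to 53.2 CPM, lie above the other 9 libraries.

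In the 34kn experiment the 3 members with the smallest p-values were the pathway's own regulators and GCLM. KEAP1 was 107, 84.2 and 89.0 CPM in the controls and 73.5, 80.2 and 76.0 CPM with 34kn, which put every treated library below every control. GCLM was 42.5, 49.7 and 44.9 CPM in the controls and 57.2, 54.2 and 53.6 CPM with 34kn, and these groups did not overlap either. Of the 8 members tested, 2 had groups that did not overlap, against 29.2% of all genes tested. NFE2L2, in an identifier joined with a gene that shares 17.63% of its exon bases, was 79.9, 107 and 89.4 CPM in the controls and 116, 117 and 104 CPM with 34kn, with 1 control inside the treated range. The log2 differences were -0.30 for KEAP1 (edgeR adjusted p = 0.0971), 0.26 for GCLM (0.102) and 0.28 for NFE2L2 (0.121).

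These 3 members passed when a single control library was left out, and so did many other genes. Without 34kn control replicate 2, edgeR's adjusted p was 0.0113 for KEAP1, 0.0133 for GCLM and 0.00641 for NFE2L2, and 2982 genes in all were called. KEAP1 and NFE2L2 also passed without the filter on low counts (adjusted p = 0.0128 and 0.0104), a setting in which 1572 genes were called. NQO1 stood at 41.9, 41.2 and 47.8 CPM in the controls and 41.7, 41.3 and 42.5 CPM with 34kn, and its ratio had a 95% interval of 0.843 to 1.08. TXNRD1 stood between 266 and 298 CPM in the controls and between 281 and 290 CPM with 34kn, with an interval of 0.924 to 1.11. GCLC, SRXN1 and ME1 had intervals of 0.904 to 1.24, 0.833 to 1.10 and 0.879 to 1.38.

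In the 34kp experiment NQO1 came closest to a call. It was 52.6, 53.2 and 51.7 CPM in the controls and 41.9, 42.7 and 39.3 CPM with 34kp, so the groups did not overlap. The log2 difference was -0.35 (SE 0.085, edgeR adjusted p = 0.0564), a ratio of 0.784 with a 95% interval of 0.690 to 0.892. NQO1 passed with library totals alone (adjusted p = 0.0332), without the filter on low counts (0.0484), with all 12 bin libraries in one fit (0.0179), in DESeq2 (0.00729), without 34kp replicate 1 (0.0427) and without 34kp replicate 3 (0.0458). Leaving out another single library gave edgeR adjusted p-values of up to 0.278. NQO1 also did not pass with RLE size factors as the scaling, with replicate as a block or with the largest bin of each gene.

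TXNRD1 was 292, 304 and 305 CPM in the 34kp controls and 333, 327 and 315 CPM with 34kp. These groups did not overlap, as for 2 of the 8 members and 23.8% of all genes, but the log2 difference of 0.11 did not pass (edgeR adjusted p = 0.415). ME1 was 23.2, 20.4 and 19.2 CPM in the controls and 15.1, 15.8 and 21.0 CPM with 34kp, with replicate 3 of the treated libraries inside the control range. Its log2 difference was -0.28 (edgeR adjusted p = 0.323), and without that library it was -0.44 (0.0413). GCLC was 14.6, 16.2 and 18.0 CPM in the controls and 19.9, 17.2 and 21.8 CPM with 34kp, a log2 difference of 0.27 (edgeR adjusted p = 0.294). NFE2L2, KEAP1, GCLM and SRXN1 had adjusted p-values between 0.452 and 0.924.

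HMOX1 had 1 count in all 12 bin libraries together, in 34kp replicate 1, over 17 bins. Across the 12 libraries SRXN1, in an identifier joined with the read-through gene and SCRT2, stood between 20.7 and 27.2 CPM. The groups overlapped in both experiments.

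Whether the effects of the 34kn and 34kp RNAs differed was tested as an interaction over the 12 bin libraries, each effect taken against its own control. Of the 8 members, 0 were called by edgeR, against 6.36% of 17323 genes, 2.83% with the higher effect for 34kn and 3.53% with the lower. Over all genes 4224 had an unadjusted p below 0.05. Among members, 2 had an unadjusted p below 0.05. KEAP1 had a difference of -0.46 on the log2 scale (SE 0.15, edgeR adjusted p = 0.0721), from -0.30 with 34kn and 0.17 with 34kp. NQO1 had a difference of 0.28 (SE 0.11, edgeR adjusted p = 0.123). DESeq2 called 1 of the members, KEAP1 (adjusted p = 0.0396), and in edgeR KEAP1 passed without 34kn control replicate 2 (0.0325) or 34kp replicate 3 (0.013) and without the filter on low counts (0.00787).

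The controls of the eRNA experiments also differed from each other. Of the 8 members, 4 were called between 34kp and 34kn controls, where 37% of all genes were called, 18.9% higher and 18.2% lower, and 3 had groups that did not overlap, against 49.4% of all genes. GCLM (log2 0.46, edgeR adjusted p = 0.0047) and NQO1 (0.27, 0.0134) were higher in the 34kp controls, and KEAP1 (-0.41, 0.00638) and NFE2L2 (-0.31, 0.0472) lower. GCLM stood at 42.5 to 49.7 CPM in the 34kn controls and at 58.8 to 70.4 CPM in the 34kp controls, with no overlap, while the NFE2L2 ranges overlapped. The experiment and the control construct cannot be told apart in this comparison. Marker lists moved with it, with no overlap for the K562 and erythroid sums given above, for the megakaryocytic list at 15.5 to 17.5 CPM in the 34kn and 27.0 to 27.5 CPM in the 34kp controls, or for the monocytic and granulocytic list at 12.1 to 13.2 and 22.0 to 24.7 CPM. Their part in these differences was not tested.

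Exon use was tested on the bins of the eRNA libraries, each bin's change being set against that of its gene. In the 34kn experiment 1 of the 144 tested bins of 8 members was called by edgeR's diffSpliceDGE, against 0.795% of all bins, and 1 of 8 members at the gene level, against 7.24% of all genes. That bin was number 12 of the 13 bins of GCLM. It took 314, 223 and 216 counts in the controls, 19.1%, 11.5% and 13.3% of the gene's bin counts. With 34kn it took 180, 144 and 167 counts, 8.75%, 6.85% and 8.03%. The groups did not overlap, and the bin's change relative to its gene was -0.61 on the log2 scale (diffSpliceDGE adjusted p = 0.0014 over all bins, gene-level adjusted p = 0.00118).

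The GCLM call was lost without 34kn replicate 2 (relative log2 -0.55, edgeR adjusted p = 0.146) and held without the other libraries, with adjusted p-values up to 0.0372. At the gene level, 3 members were called for exon use without 34kn control replicate 2, and 2 without 34kn control replicate 3. Without 34kn control replicate 1, in which the share was highest, the relative change was -0.45 (diffSpliceDGE adjusted p = 0.0332). In the 34kp experiment the same bin held 8.08%, 9.01% and 9.92% in the controls and 13.8%, 9.85% and 7.69% with 34kp, and 0 of 139 member bins were called there, against 0.00862% of all bins and 0.0853% of all genes. The files give no coordinates for bins. GENCODE 29 also divides GCLM into 13 pieces, and if the numbering is the same, the 12th piece by coordinate is chr1:93909038-93909410, 373 bases whose upper end lies inside the promoter window shown above.

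Other members had no called bin. The bin with the smallest p in KEAP1 in the 34kn experiment, number 5, took 7.89%, 3.99% and 4.93% of the gene's bin counts in the controls and 3.67%, 4.34% and 4.07% with 34kn. SRXN1 bin 3 took 19.0%, 14.1% and 8.99% in the controls and 7.46%, 9.95% and 8.43% with 34kn (diffSpliceDGE adjusted p = 0.167). In GCLM bin 12, KEAP1 bin 5 and SRXN1 bin 3 alike, replicate 1 was the highest of the 3 controls of the 34kn experiment, and replicate 1 was the highest of the 3 treated libraries of the 34kp experiment, at 13.8%, 6.85% and 11.5%. These bins were chosen by their p in the 34kn experiment, after their values were seen.

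**Figure D4:**
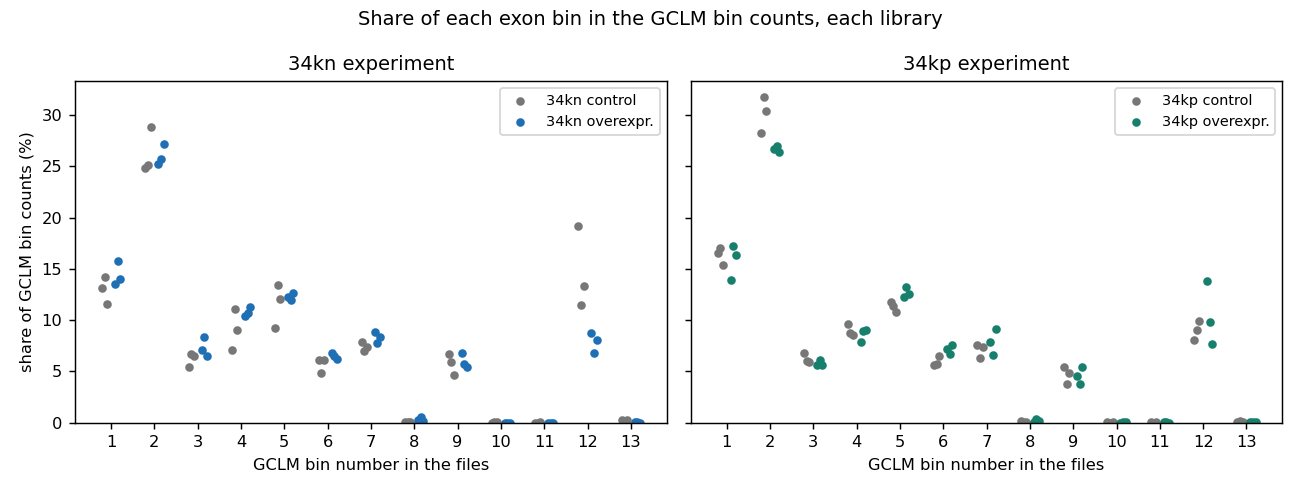
Share of each of the 13 exon bins in the GCLM bin counts, in percent, with one point per library, for the 34kn experiment on the left and the 34kp experiment on the right. Bin 12 holds 11.5% to 19.1% in the 34kn controls and 6.85% to 8.75% with 34kn.

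A wider set of 86 genes around the pathway was read in 6 lists, which were chosen with earlier results of these data known. In the libraries labelled MYB, 8 of the 78 tested were called higher and 18 lower, and in those labelled NMYB 14 higher and 13 lower, beside the shares of 9.62%, 12.7%, 12.6% and 12.4% over all genes. The median change was -0.069 for MYB and -0.0017 for NMYB, beside 0.0055 and 0.0076. Among the 14 partners, competitors and regulators of NRF2, 3 rose and 3 fell for MYB and 4 rose and 5 fell for NMYB. SQSTM1, the autophagy receptor that can take KEAP1 away from NRF2, was 103, 106 and 101 CPM with empty vector, 124, 129 and 121 CPM for MYB and 142, 150 and 133 CPM for NMYB. The 3 groups were fully separated, with log2 fold changes from empty vector of 0.27 and 0.46 (edgeR adjusted p = 0.000764 and 3.8e-06).

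Other regulators fell. BACH2, a repressor that competes for the same elements, was 11.8, 12.3 and 12.9 CPM with empty vector, 9.83, 9.98 and 8.70 CPM for MYB and 8.97, 7.67 and 8.21 CPM for NMYB, log2 fold changes of -0.37 and -0.57 (edgeR adjusted p = 0.0075 and 0.000319). NFE2, the erythroid factor of the same family, fell by 0.34 on the log2 scale for MYB (edgeR adjusted p = 1.23e-05), from 255 ± 4.53 to 201 ± 5.36 CPM (SD, n = 3). MAFF, a small MAF partner, fell by 0.52 for MYB (edgeR adjusted p = 0.00458).

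Of the 18 tested glutathione genes, 1 rose and 2 fell for MYB, and 1 rose and 1 fell for NMYB. Over all genes 22.3% were called for MYB and 24.9% for NMYB, shares that stand beside this list and those below. The gene that rose in both was SLC3A2, the heavy chain of the cystine importer and of other amino acid carriers, at 198, 220 and 228 CPM with empty vector, 297, 292 and 289 CPM for MYB and 295, 315 and 298 CPM for NMYB. All 6 libraries were above the empty-vector ones, with log2 fold changes of 0.44 and 0.49 (edgeR adjusted p = 2.42e-06 and 1.01e-06). SLC7A11, the light chain of the cystine importer and a reported NRF2 target, fell for NMYB by 0.32 (edgeR adjusted p = 0.00279), from 33.5 ± 2.78 to 26.9 ± 0.219 CPM (SD, n = 3). GSTP1, a glutathione transferase, fell for MYB by 0.22 (edgeR adjusted p = 0.00222).

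Among the 15 tested thioredoxin, peroxiredoxin, superoxide and peroxide genes, 1 rose and 2 fell for MYB and 3 rose and 1 fell for NMYB. PRDX4, the peroxiredoxin of the endoplasmic reticulum, rose in both, by log2 0.24 and 0.27 (edgeR adjusted p = 0.00363 and 0.00144). PRDX2, the abundant peroxiredoxin of red cells, fell for MYB by 0.31 (edgeR adjusted p = 0.000237), and TXN, thioredoxin itself, rose for NMYB by log2 0.22 (edgeR adjusted p = 0.00101). Of the 9 tested NADPH supply genes other than ME1, 4 fell and 0 rose for MYB, where IDH2, the mitochondrial isocitrate dehydrogenase, fell by 0.31 (edgeR adjusted p = 0.00191) and PGD of the pentose phosphate pathway by 0.18 (0.00523). For NMYB 2 of these 9 rose and 0 fell.

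Of the 15 tested quinone, carbonyl and export genes, 2 rose and 6 fell in each of the comparisons. AKR1C3, an aldo-keto reductase reported as an NRF2 target, was 9.09, 10.5 and 9.48 CPM with empty vector, 4.75, 4.52 and 4.55 CPM for MYB and 6.15, 5.74 and 6.39 CPM for NMYB. The 3 groups did not overlap, with log2 fold changes of -1.07 and -0.66 (edgeR adjusted p = 6.27e-07 and 0.000147). AKR1C genes are close copies of each other, and reads that fit several of them may be shared out between them. ABCC1, an exporter of glutathione conjugates, fell by 0.30 for MYB and by 0.33 for NMYB (edgeR adjusted p = 0.00062 and 0.000266).

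The 7 haem breakdown and iron storage genes gave 1 rise, FTH1, and 1 fall for MYB, and 2 rises, FTH1 and FTL, for NMYB. FTL, the ferritin light chain and a reported NRF2 target, rose for NMYB from 3103 ± 42.8 to 3485 ± 12.3 CPM (SD, n = 3), log2 0.17 (edgeR adjusted p = 0.00193). FTH1, the ferritin heavy chain, was recorded at 31.7 ± 8.67 CPM with empty vector, 116 ± 42.3 CPM for MYB and 396 ± 171 CPM for NMYB (SD, n = 3). FTH1 has many near-identical copies in the genome, and its gene-table value and both calls of a rise are uncertain for that reason. The MYB call was lost without any 1 of the 3 empty-vector libraries, without MYB replicate 2 or 3 (edgeR adjusted p = 0.0784 to 0.114) and without the filter on low counts (0.0761). Between the libraries labelled NMYB and MYB, 3 of the 78 wider genes were called, all higher in NMYB, against 1.14% of all genes. Each of these calls was lost when any 1 of the 3 MYB libraries was left out (edgeR adjusted p = 0.0582 to 0.171). The 3 genes were PRDX2 (log2 0.24, edgeR adjusted p = 0.0345), SOD1, the cytosolic superoxide dismutase (0.19, 0.0418), and IDH2 (0.31, 0.0304). Leaving out NMYB replicate 1 also ended the calls of PRDX2 (edgeR adjusted p = 0.0625) and SOD1 (0.125), and leaving out NMYB replicate 2 that of SOD1 (0.0542).

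In the 34kn experiment 0 of the 78 tested wider genes were called by edgeR. In the 34kp experiment 8 of the 77 tested fell and 0 rose, against 1.72% and 0.63% of all genes, with a median of -0.042 beside -0.0050 over all genes. These 8 genes belong to 4 of the 6 lists. Because the lists were chosen with earlier results known, the count is a description and no separate evidence. The 34kp libraries also differed from their controls in the low-quality and ambiguous shares given above, and the part of this was not tested. CHAC1, an enzyme that degrades glutathione, was 13.0, 14.9 and 16.0 CPM in the controls and 4.24, 1.94 and 2.94 CPM with 34kp, a log2 fold change of -2.28 (SE 0.23, edgeR adjusted p = 0.000591). SLC7A11 was 46.3, 41.7 and 41.4 CPM in the controls and 21.8, 26.2 and 29.5 CPM with 34kp, log2 -0.74 (edgeR adjusted p = 0.00895). In both genes every treated library was below every control.

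SESN2, a stress-induced sestrin, was 51.6, 53.6 and 58.0 CPM in the controls and 35.9, 32.5 and 33.1 CPM with 34kp, log2 -0.69 (edgeR adjusted p = 0.00335). PIR, an iron-binding nuclear protein reported as an NRF2 target, was 19.6, 20.1 and 20.7 CPM in the controls and 12.5, 12.5 and 11.8 CPM with 34kp, log2 -0.73 (edgeR adjusted p = 0.00493). Neither gene had overlapping groups. IDH1, the cytosolic isocitrate dehydrogenase that makes NADPH, fell from 108 ± 3.60 to 76.5 ± 3.04 CPM (SD, n = 3), log2 -0.50 (edgeR adjusted p = 0.00895). AKR1C1, AKR1C2 and AKR1C3 had log2 fold changes of -0.53, -0.53 and -0.50 (edgeR adjusted p = 0.00815, 0.00825 and 0.0352). Reads may be shared out between these close copies, so their calls may not be separate.

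Of the 8 calls in the 34kp experiment, all but that of CHAC1 were lost under some alternatives. CHAC1 was called under all 13 alternatives. Without 34kp replicate 2 it was the only one of the 8 still called, with edgeR adjusted p-values of the others up to 0.211 (AKR1C3). Over all genes 58 were then called, against 392 with that library. Without 34kp control replicate 2 there were 2 calls, without control replicate 1 there were 4 and without control replicate 3 there were 7. With the largest bin of each gene in place of the sum there were 4.

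**Figure D5:**
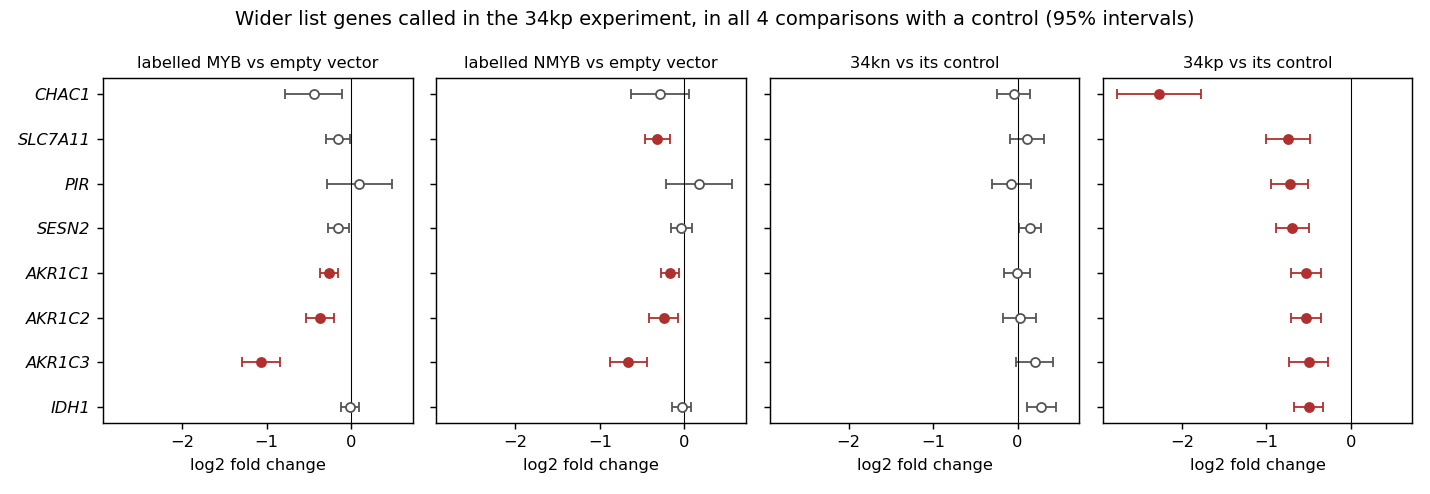
Log2 fold change, with 95% intervals from edgeR, of the 8 wider genes called in the 34kp experiment, in the 4 comparisons with a control, filled red where the adjusted p was below 0.05. CHAC1 lies at -2.28 in the 34kp panel, and no gene is filled in the 34kn panel.

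Several of these genes also differed between the controls, in which the experiment and the control construct cannot be told apart. Mean levels of AKR1C1 were 69.5 CPM in the 34kn controls, 69.4 with 34kn, 173 in the 34kp controls and 120 with 34kp. PIR stood at 13.7, 13.0, 20.2 and 12.2 CPM in the same order. Both genes, like NQO1, were thus highest in the 34kp controls. CHAC1 had the opposite order of controls, at 56.8 and 55.2 CPM in the 34kn experiment and 14.7 and 3.04 CPM in the 34kp experiment, and SESN2 likewise at 126, 140, 54.4 and 33.8 CPM.

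ME1 had the largest called change of any member, and the genes whose 4 log2 fold changes against control lay nearest to its own were sought among 12219 genes tested in all 4 comparisons. The 5 nearest were NOXRED1, PGM2L1, LINC02616, YEATS2 and SQLE, with a root mean square difference of 0.051 to 0.067 on the log2 scale over the 4 comparisons. NOXRED1 had changes of -0.53, -0.52, 0.10 and -0.36 for MYB, NMYB, 34kn and 34kp, beside -0.50, -0.49, 0.14 and -0.28 for ME1. With this many genes some lie near any pattern, and the likeness was not tested.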

How the data were processed

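The deposited values were counts. The tools behind them, per the submitters' processing notes, were Trimmomatic 0.93, STAR 2.7.10a, HISAT2 2.2.1 and featureCounts 2.0.1, on GRCh38. The annotation release, bin counter and strand setting are not given in the sources used here. Bin counts were summed per identifier, so a read over several bins adds to each, and rows that name no gene were left out. Levels were TMM-scaled CPM. Groups were compared with edgeR 4.0.16 quasi-likelihood tests (filterByExpr, minimum count 10, Benjamini-Hochberg adjusted p below 0.05) in R 4.3.3, and exon use with diffSpliceDGE, tested on simulated data. The 9 libraries of the gene table shared one fit, as did each eRNA experiment and, for the interaction and the controls, all 12 bin libraries. Alternatives were DESeq2 1.42.0, limma 3.58.1 for bins, other scalings, no filter, a stricter bin minimum of 30, the largest bin, a replicate block and leaving out each library. Wider genes were named by list, at most 4 called per direction, and other called wider genes only where a count needed them. Exon lengths and positions came from GENCODE 29. Members and lists were chosen with earlier results of these data known.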

Additional observations from a re-analysis of the deposited data

Results flagged for a closer look

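Among 79 tested genes of the wider pathway, the effect of 34kn overexpression was higher than that of 34kp overexpression for 12 and lower for 2 by the interaction test over the 12 bin libraries (edgeR adjusted p below 0.05), where 6.36% of all genes were called. Each value below is the 34kn effect minus the 34kp effect on the log2 scale. In glutathione handling, CHAC1 had 2.23 (edgeR adjusted p = 0.000191), SLC7A11 0.86 (0.00659) and GLRX 0.87 (0.0265). Among stress and thioredoxin genes, SESN2 had 0.84 (edgeR adjusted p = 0.000281) and TXNIP 0.34 (0.0397). Among genes of NADPH supply, IDH1 had 0.78 (edgeR adjusted p = 0.000928) and MTHFD2 0.52 (0.00506). Among quinone, carbonyl and export genes, AKR1B1 had 0.77 (edgeR adjusted p = 0.0417), AKR1C2 0.56 (0.0108), AKR1C3 0.70 (0.01), PIR 0.65 (0.0122) and AKR1C1 0.52 (0.00856), the last beyond the 4 named per list and direction. MAFG, a small MAF partner of NRF2, had -0.47 (edgeR adjusted p = 0.0243). Its identifier in the bin files is joined with another gene, so this value is not that of MAFG alone.

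ABCC2, an exporter, had -5.85 (edgeR adjusted p = 0.038), and because its 3 34kn libraries held 0 counts this fitted value is no bound on a fold. CHAC1, SLC7A11, SESN2, IDH1, MTHFD2, AKR1C2, AKR1C3 and PIR passed in all 17 alternatives of this test. ABCC2 failed in 10 of them, AKR1B1 in 10, GLRX in 6, MAFG in 5 and TXNIP in 11.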

How the results depend on the processing

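No value of a named gene reversed in the comparisons that were recomputed. The comparison of the 34kp with the 34kn controls was not recomputed, so how its calls depend on the processing was not tested. Of 596 recomputed member values, 567 kept their side of the threshold, 8 lost a call and 21 gained one. Of 1569 values over members, wider genes and the usage of GCLM bin 12 and SRXN1 bin 3 together, 1386 kept their side. Of the rest, 162 lost a call and 21 gained one. The counts of 4 members called for MYB and 4 for NMYB, and of 3529 and 3946 genes in all, stayed within 1.5 times of themselves. Counts in the other comparisons did not. For NMYB against MYB, 0 members were called, and 1 without the filter on low counts, with 0 to 1 when a library was left out. The member was SRXN1 each time, which was too low for the filter otherwise, and SRXN1 was also among the 6 members called for MYB and the 5 for NMYB without the filter. Of all genes 181 were called for NMYB against MYB, 656 without the filter, 60 in a fit of only the 6 libraries and 0 to 323 with a library left out. In the 34kn experiment 2 members and 1572 genes were called without the filter, 952 genes by DESeq2, 136 with the largest bin, and 0 to 3 members and 0 to 2982 genes with a library left out. In the 34kp experiment 1 member was called with library totals alone, without the filter, by DESeq2 and with all 12 libraries, and 0 to 2 with a library left out. Of all genes, 392 became 997 without the filter, 957 by DESeq2, 817 with all 12 libraries, 190 with the largest bin and 46 to 1175 with a library left out. For the interaction, 1 member was called without the filter and 1 by DESeq2, with 0 to 1 when a library was left out, and the 1102 genes became 2085, 1898 and 373 to 2747. With a library left out, exon use was called in 0 to 3 members and 111 to 2645 genes for 34kn, against 826, and in 3 to 34 genes for 34kp, against 10. The cause of these shifts was not tested.

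Replicate numbers were not used as pairs in the main fits. Deviations of same-numbered samples correlated at -0.393 to 0.198 over 15 pairs, and not all pairs of any comparison were above 0.1. Such correlations cannot exclude that same-numbered samples belong together, and the labels do not say. With replicate as a block, 4342 genes were called for MYB and 4713 for NMYB, against 3529 and 3946 without it. For NMYB against MYB 1184 genes were called, against 181. The block gave 71 genes for 34kp, 652 for the interaction and 4 in the 34kp exon use test. KEAP1 for MYB then passed (edgeR adjusted p = 0.012), and 2 of the 8 wider genes of the 34kp experiment did. Depth limits HMOX1, with 4 reads in the gene table and 1 count in the bin files.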

Other observations

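The controls of the eRNA experiments differed across the wider pathway, with 20 of 79 tested genes higher and 28 lower in the 34kp controls than in the 34kn controls, where 37% of all genes were called. Of the 17 tested quinone, carbonyl and export genes reported as NRF2 targets, 5 were higher and 2 lower. The lower ones were OSGIN1 and NQO2, both in joined identifiers. SLC7A11, another reported target, was lower too. AKR1C3 was higher by log2 1.64, AKR1C1 by 1.32 and AKR1C2 by 1.13 (edgeR adjusted p = 1.37e-08, 3.71e-09 and 7.45e-08). Reads may be shared out between these AKR1C copies, so their calls may not be separate. GLRX, a glutaredoxin, was higher by 1.37 (edgeR adjusted p = 7.22e-06). CHAC1 at -1.95, SESN2 at -1.22 and MAFF at -1.20 were lower (edgeR adjusted p = 4.23e-07, 6.96e-09 and 0.000103). Of the 14 partners, competitors and regulators of NRF2, 2 were higher and 8 lower. The summed K562 and erythroid, megakaryocytic and monocytic marker lists also differed between these controls without overlap, and their part in these differences was not tested. In this comparison the experiment and the control construct cannot be told apart. These genes were chosen for naming after their values were seen.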
